A study of Mus musculus with 6 samples.

Results

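Mono-ADP-ribosyltransferases of the PARP family that interferon is known to induce were followed here in LPS-treated renal tubular cells, together with Dtx3l, the ubiquitin ligase that works as a complex with Parp9. The genes were chosen by symbol: Parp9, Dtx3l, Parp10, Parp11, Parp12 and Parp14 as the 6 interferon-inducible genes, and Parp1 and Parp2, the DNA damage sensors of the same family, as 2 members that interferon is not known to control. All 8 were found among the 22442 genes of the expression table, and all 8 passed a minimum mean level of 0.5 FPKM. FPKM are fragments scaled to a length for the gene, here the coding sequence, and to the library total. Comparing levels in FPKM between libraries assumes a similar make-up of their RNA, and comparing them between genes depends on the length used.

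RNA was sequenced from mTECs, a murine renal tubular epithelial line, in 6 libraries. All 6 cultures received LPS, a bacterial lipopolysaccharide, at 20 µg/ml for 24 h. In 3 libraries, labelled LPS, the cells carried a negative control RNA, and in the other 3, labelled Stat3-silenced, an RNA against Stat3. The paper calls the line immortalised and lists an shRNA, whereas the sample labels speak of sorted cells and an siRNA. No culture without LPS was analysed, so the comparison is between the labels within LPS-treated cells and not of the response to LPS. The labels do not say whether the 3 libraries of a group came from independent experiments, so the p-values measure the spread between these libraries.

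PARP enzymes take ADP-ribose from NAD+ and attach it to proteins or nucleic acids. Parp1 and Parp2 build chains of ADP-ribose at broken DNA, whereas Parp10, Parp11, Parp12 and Parp14 attach single units, and this group is known for antiviral and inflammatory roles. Most of the interferon-inducible members are known targets of transcription factors that bind the interferon-stimulated response element (ISRE) in promoters.

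Library totals worked out from the values lay between 24084827 and 25422171 fragments, and depth was thus nearly even. Stat3 itself did not separate the groups. Its level was 34.6, 31.4 and 35.2 FPKM under the LPS label and 30.8, 35.2 and 34.3 FPKM under the Stat3-silenced label, with a log2 fold change of −0.01 ± 0.07 (SE; limma adjusted p = 0.944). The directions below therefore rest on the labels of the libraries, since the Stat3 transcript gave no check of them. Krt8, Krt18, Epcam and Cdh1, markers of epithelium, were all abundant, while Lrp2 and Slc34a1, markers of the proximal tubule, lay at or near 0. Aqp1, another tubular marker, lay between 3.9 and 9.2 FPKM. It was higher with the Stat3-silenced label (log2 fold change 0.93 ± 0.16, limma adjusted p = 0.0174), and passed under 12 of 16 alternatives. Of 10 tubular epithelial markers, 8 were tested, of which 4 were higher and 1 was lower in the libraries labelled Stat3-silenced. Over all tested genes, 1.57% were higher and 1.66% lower. The higher markers other than Aqp1 were more abundant than it and stood at 120% to 152% of their LPS mean. The summed level of this list was 3187 to 3261 FPKM against 3142 to 3171 FPKM. Most of that sum came from Krt8 (mean 1205 against 1170 FPKM) and Krt18 (1290 against 1164 FPKM), so it says little about the other markers. With each library left out in turn, 2 to 4 of these markers were higher and 0 or 1 lower. Among 7 immune cell markers, of which 4 were tested, Csf1r was higher (adjusted p = 0.0208, and between 0.0769 and 0.0902 without LPS replicate 3 or any one Stat3-silenced library). The other 3 tested did not pass and had negative log2 fold changes: Cd68 −0.30 (adjusted p = 0.197), Adgre1 −0.39 (0.593) and Ptprc −0.18 (0.869). The median of the list was −0.24, and its summed level was 36.4 to 44.5 against 44.1 to 47.5 FPKM. Itgam was at or near 0 in all 6 libraries. Of the 4 endothelial markers 2 were tested and of the 4 fibroblast and pericyte markers all 4, and 0 passed. The part of these markers in the results below was not tested.

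Promoter regions are shown first, because the ISRE is the element through which interferon is known to act on most of the inducible members. RefSeq windows of 300 bases, from 250 before a transcript start to 50 after it on GRCm38.p6, were at hand for 5 of the 8 genes, in 6 windows. Parp9, Parp10 and Parp14 had none of their own. The Dtx3l window, chr16:35938978-35939277, was set on a RefSeq start at 35939027. It also held the GENCODE start of Dtx3l, at 35939151, so part of the window lay inside the gene as annotated there. A start of a Parp9 transcript, at 35939011, lay in it too, so this window covers starts of both genes. The windows were searched for the core letters of the ISRE, GAAANNGAAA or TTTCNNTTTC on the other strand, and for TTCNNNGAA, the letters that STAT dimers are known to bind, which read the same on both strands. The first occurred in 3.44% and the second in 8.30% of all 32851 windows. Of the 6 member windows, 1 held both. It was the more upstream of the 2 Parp11 windows, with TTTCGATTTC beginning 44 bases and TTCTTGGAA beginning 37 bases before the start, overlapping by 3 bases. The windows of Dtx3l, Parp12, Parp1 and Parp2 and the other Parp11 window held neither. The stretches before the start of Parp11, the inducible member that did not pass the test, and of Parp12 and Dtx3l, which fell, are given here 5′ to 3′ along the gene, with the matches in capitals.
Parp11, chr6:127446590-127446839, plus strand: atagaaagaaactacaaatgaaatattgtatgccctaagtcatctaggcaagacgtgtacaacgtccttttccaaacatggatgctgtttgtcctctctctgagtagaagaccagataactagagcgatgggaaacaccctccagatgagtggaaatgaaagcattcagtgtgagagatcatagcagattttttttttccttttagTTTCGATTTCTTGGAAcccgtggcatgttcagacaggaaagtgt
Parp12, chr6:39118350-39118599, minus strand: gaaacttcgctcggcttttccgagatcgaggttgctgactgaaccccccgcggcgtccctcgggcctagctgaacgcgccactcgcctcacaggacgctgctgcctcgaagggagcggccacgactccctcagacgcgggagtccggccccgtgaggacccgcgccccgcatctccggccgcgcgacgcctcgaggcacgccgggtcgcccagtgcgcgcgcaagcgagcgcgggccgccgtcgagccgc
Dtx3l, chr16:35939207-35939277, minus strand: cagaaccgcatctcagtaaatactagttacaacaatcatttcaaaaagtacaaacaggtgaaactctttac
The 250 bases of Parp11 and the 71 of Dtx3l lay outside annotated exons, and 127 of the 250 of Parp12 lay in an exon of an antisense RNA on the other strand. The Parp12 stretch was 73.6% G and C, against 40.4% for Parp11. For Dtx3l only the 71 bases of the window farthest from the start are printed, and these were 33.8% G and C. Over the whole windows of 300 bases the values were 73.7% for Parp12, 42% for the upstream window of Parp11 and 54.3% for Dtx3l. A match is a description of letters and not a site of binding, and its absence says only that the letters are not in the window.

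Of the 6 interferon-inducible genes, 5 fell in the libraries labelled Stat3-silenced: Parp14, Dtx3l, Parp12, Parp10 and Parp9, to between 29.1% and 50.6% of their mean in the libraries labelled LPS. Parp11 did not pass the test in either direction. Parp2 was lower by a smaller step and Parp1 did not pass. In all, 6 of the 8 genes were lower at an adjusted p under 0.05 and 0 were higher, whereas 1.66% of the 11723 tested genes were lower and 1.57% were higher. The median log2 fold change of the 6 inducible genes was −1.09, against −0.01 over all genes tested. Tests used limma on log2(FPKM + 0.1) with Benjamini-Hochberg adjustment over all genes tested, and fold changes on that scale slightly understate the change of low genes. In such bulk libraries, less RNA per cell and fewer cells expressing a gene cannot be told apart.

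**Figure D1:**
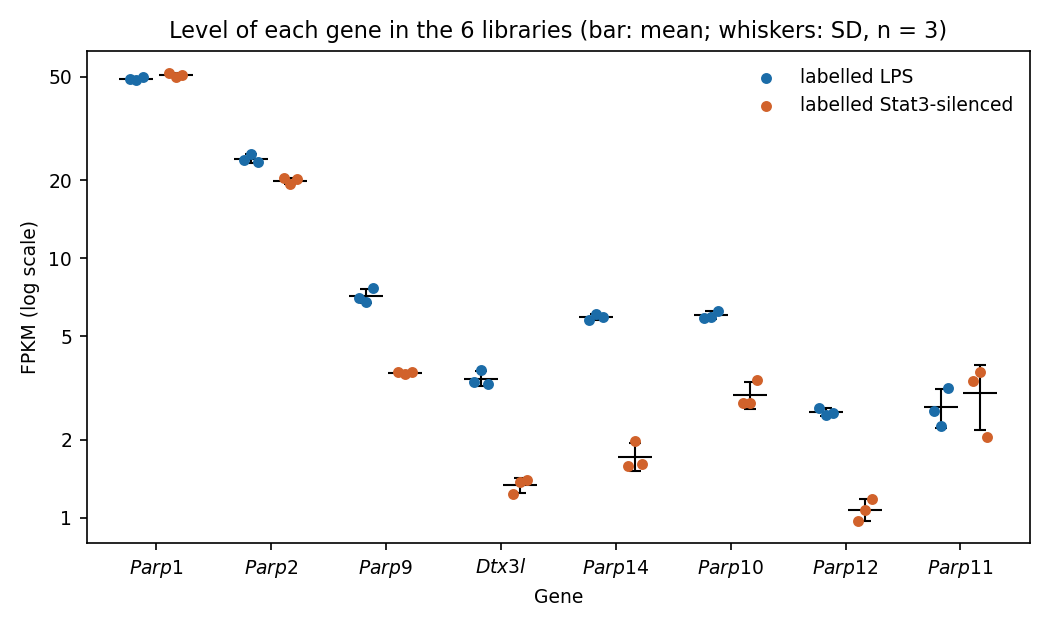
FPKM on a log scale (vertical) of the 8 genes in each of the 6 libraries, with points for libraries, bars for the mean and whiskers for the SD (n = 3). For Parp9, Dtx3l, Parp14, Parp10 and Parp12 every library labelled Stat3-silenced lay below every library labelled LPS, while for Parp11 the groups overlapped and Parp1 stayed between 48.6 and 51.6 FPKM. Over all tested genes, the groups did not overlap for 23.8%.

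Parp14, a macrodomain-containing transferase first known as a coactivator of Stat6, showed the largest fall of the 8. Under the LPS label it measured 5.76, 6.08 and 5.92 FPKM, and under the Stat3-silenced label 1.59, 1.97 and 1.61 FPKM. The highest of the second group was thus well under the lowest of the first. The log2 fold change was −1.73 ± 0.14 (SE; 95% CI −2.05 to −1.41; limma adjusted p = 5.31e-04), 27 places from the lowest of the 11723 genes. Parp14 rested on between 216 and 825 fragments a library and lies at chr16:35832874-35871544 on the minus strand of GRCm38. Its spread among the libraries labelled LPS was 2.67% of the mean, within the 3.54% that counting alone would give, and 12.6% against 6.56% in the other group.

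Dtx3l, a RING-type ubiquitin ligase of the Deltex family, and Parp9, its partner, are neighbours of Parp14 on chromosome 16. Dtx3l (chr16:35926511-35939151, minus strand) and Parp9 (chr16:35938470-35972605, plus strand) stand head to head and overlap by 682 bases, and Parp14 lies 54966 bases beyond the far end of Dtx3l. Dtx3l measured 3.34, 3.70 and 3.28 FPKM with the LPS label and 1.24, 1.37 and 1.40 FPKM with the Stat3-silenced label. The groups did not overlap, and Dtx3l stood at 38.9% of its LPS mean (log2 fold change −1.30 ± 0.16, limma adjusted p = 0.00432). Parp9, which binds ADP-ribose through its macrodomains and by itself has little or no transferase activity, measured 7.00, 6.81 and 7.70 FPKM in the first group. In the second group it measured 3.65, 3.58 and 3.65 FPKM, values closer together than the 6.48% that counting alone would give, with an SD of 1.07% of the mean. Parp9 stood at 50.6% of its LPS mean (log2 fold change −0.96 ± 0.10, limma adjusted p = 0.00212), again with no overlap.

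Since both proteins act in 1 complex, the level of Dtx3l was divided by that of Parp9 in each library. With the LPS label the ratio was 0.477, 0.543 and 0.426, and with the Stat3-silenced label it was 0.339, 0.383 and 0.384. All 3 values of the second group lay under all 3 of the first, with a difference in mean log2 ratio of −0.38. A two-sided exact permutation test gave p = 0.1, the smallest that 20 assignments of the labels allow, so the design could not take this difference past 0.05. An exon of Parp9 covers 184 bases of the Dtx3l coding sequence, and 9.68% of the 31-base stretches of Dtx3l transcripts occur in another gene, Parp9 among them. Whether fragments from there were counted by strand is not given in the sources used here.

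Around these 3 genes on chromosome 16, no other protein-coding gene passed the test. Within 100 kb of the outer ends of Parp14 and Parp9 lay 9 protein-coding genes, all of them tested. The other 6 did not pass, with log2 fold changes from −0.23 (Hspbap1, adjusted p = 0.102) to 0.44 (Wdr5b, adjusted p = 0.187). Kpna1, the closest gene on the Parp9 side, encodes an importin, a carrier of proteins into the nucleus, and had a log2 fold change of −0.08 ± 0.06 (adjusted p = 0.578). Differences between these genes were not tested.

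**Figure D2:**
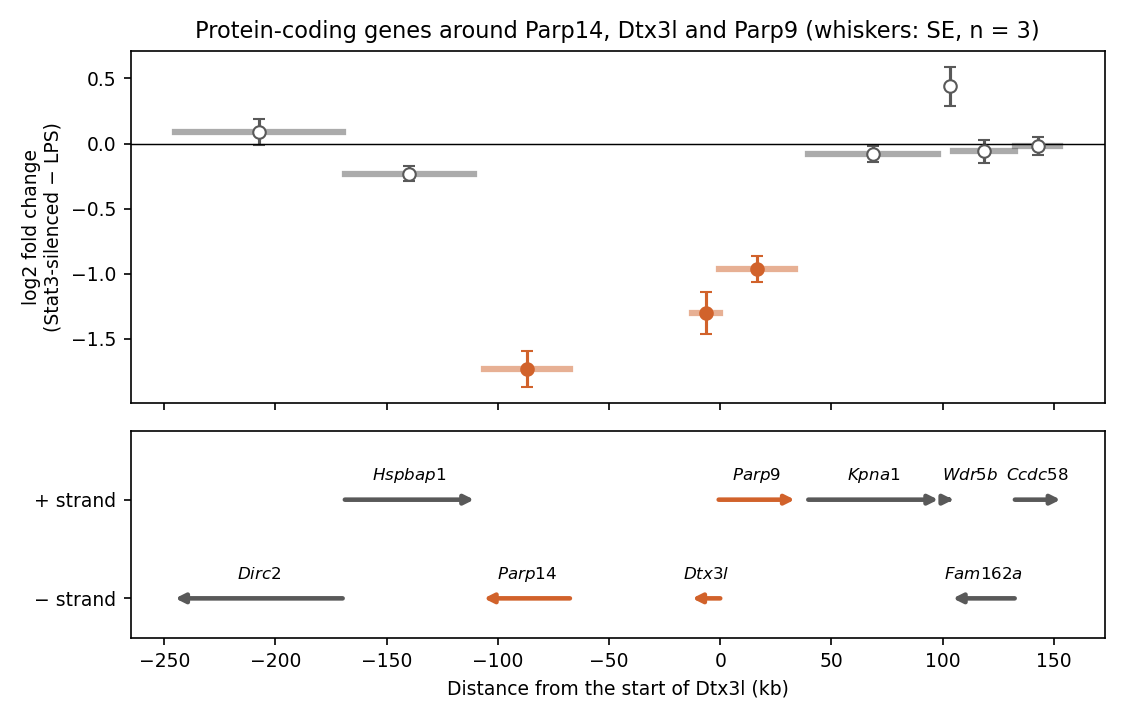
Upper panel, log2 fold change (libraries labelled Stat3-silenced minus LPS, whiskers SE, n = 3) of the 9 protein-coding genes against distance in kb from the start of Dtx3l, with filled points for an adjusted p under 0.05 and bars for the extent of each gene. Lower panel, the same genes as arrows by strand: the 3 filled points belong to Parp14, Dtx3l and Parp9, and the 6 open ones lie between −0.23 and 0.44.

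Parp12 and Parp10, the other inducible members that fell, lie on other chromosomes. Parp12 (chr6:39086410-39118349, minus strand), a zinc finger transferase of the Golgi and of stress granules, measured 2.66, 2.49 and 2.53 FPKM with the LPS label and 0.976, 1.07 and 1.18 FPKM with the Stat3-silenced label. Its mean was the lowest of the 8 in both groups, although its values overlapped those of Parp11 with the LPS label. It had 52 to 141 fragments a library and fell to 42.0% (log2 fold change −1.18 ± 0.19, limma adjusted p = 0.0129). This call did not hold without LPS replicate 3 (adjusted p = 0.0677) or without Stat3-silenced replicate 1 (0.05003, just above the threshold). The fold change moved between −1.24 and −1.12 over the 6 fits with 1 library left out. The groups did not overlap, as was so for 23.8% of all tested genes.

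Parp10 (chr15:76231174-76243441, minus strand), a transferase known to restrain NF-κB signalling, was at 5.89, 5.94 and 6.27 FPKM with the LPS label. It was at 2.77, 2.77 and 3.39 FPKM with the Stat3-silenced label, where replicate 3 was the highest but still far below the LPS range. The log2 fold change was −1.002 ± 0.13 (limma adjusted p = 0.00447), a level 49.3% of that with the LPS label. Parp10 and Plec share 205 bases of exon, none of them coding.

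Parp11 (chr6:127446840-127494261, plus strand), a transferase known to modify a ligase that controls the interferon receptor, was the exception. It measured 2.58, 2.26 and 3.16 FPKM with the LPS label, and 3.38, 3.63 and 2.05 FPKM with the Stat3-silenced label. The highest and the lowest of all 6 values both came from the second group. The log2 fold change of 0.14 ± 0.24 had a 95% CI from −0.40 to 0.69, that is from a level 24.1% lower to one 61.1% higher, and the adjusted p was 0.811. Without Stat3-silenced replicate 2 the difference was −0.0036 on the log2 scale (adjusted p = 0.997), and without replicate 3 it was 0.39. Parp11 had 52 to 87 fragments a library, as few as Parp12 in its lower group, and the lower bound of its interval lay above the fitted value of each of the other 5 inducible genes. The spread was 17.2% and 28.0% of the mean in the 2 groups, against 12.3% and 11.6% from counting alone. Each gene's own change was tested, and the difference between Parp11 and the others was not.

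Parp1 and Parp2, which find broken DNA, were the most abundant of the 8 in both groups. Parp1 (chr1:180568924-180601254, plus strand) measured 48.8, 48.6 and 50.0 FPKM with the LPS label and 51.6, 50.0 and 50.8 FPKM with the Stat3-silenced label. The groups were barely apart, and the log2 fold change of 0.05 ± 0.04 (95% CI −0.04 to 0.14, limma adjusted p = 0.583) was small for a gene with at least 3668 fragments in every library. Groups that do not overlap are common here, at 23.8% of the tested genes.

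Parp2 (chr14:50807841-50821301, plus strand) was at 23.9, 25.2 and 23.5 FPKM in the first group and at 20.3, 19.3 and 20.1 FPKM in the second. It was lower in each library labelled Stat3-silenced, at 82.1% of the LPS mean (log2 fold change −0.28 ± 0.06, limma adjusted p = 0.0375). The direction was kept, but the call was lost whichever library was left out, with an adjusted p between 0.0623 (without LPS replicate 1) and 0.1198 (without Stat3-silenced replicate 2). It was 0.0909 without LPS replicate 2, 0.0980 without LPS replicate 3, 0.110 without Stat3-silenced replicate 1 and 0.118 without Stat3-silenced replicate 3. The level of Parp2 is thus reported as lower at the edge of the threshold.

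Within-library ratios set genes of neighbouring fold change against each other. Parp14 was 1.73, 1.64 and 1.80 times the level of Dtx3l with the LPS label, and 1.28, 1.44 and 1.15 times with the Stat3-silenced label, so that the groups did not overlap. The ratio of Dtx3l to Parp12 overlapped between the groups, at 1.26 to 1.49 against 1.19 to 1.28, and so did that of Parp10 to Parp9, at 0.814 to 0.872 against 0.757 to 0.929. Parp12 to Parp10 did not overlap, at 0.404 to 0.451 against 0.348 to 0.387. The pairs were ordered by fold change in these same libraries, so the direction of each difference was set by that order. These ratios are therefore given as values with no test. The share of 23.8% for groups that do not overlap is of levels of single genes and not of such ratios.

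In the libraries labelled LPS the order of levels was Parp1, Parp2, Parp9, Parp10, Parp14, Dtx3l, Parp11 and Parp12. Parp10 and Parp14 overlapped there, as did Parp11 and Parp12, and the other neighbours in that order did not. With the Stat3-silenced label Parp11 moved up to place 4, overlapping both Parp9 above it and Parp10 below it, and Parp14 and Dtx3l followed with Parp12 last. The 5 inducible genes that fell made up 24.7%, 24.8% and 25.1% of the summed FPKM of the 8 genes with the LPS label and 12.0%, 12.9% and 13.3% with the Stat3-silenced label. As these 5 were picked for their fall, that share is a description.

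**Figure D3:**
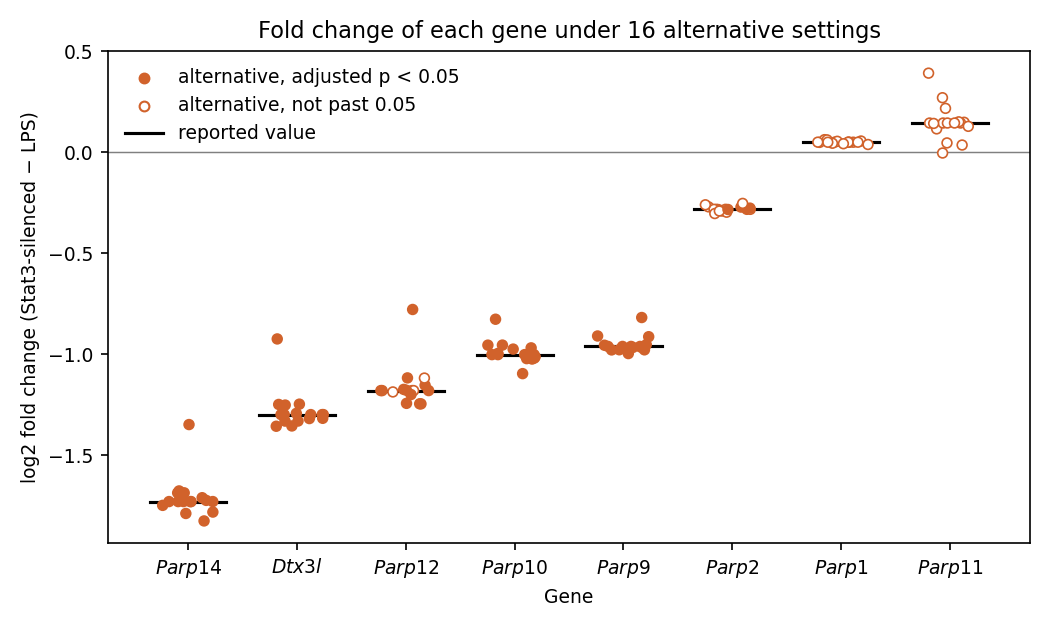
Log2 fold change (vertical) of each of the 8 genes as reported (black line) and under 16 alternative settings (points, filled where the adjusted p was under 0.05; sideways spread carries no value). Parp14, Dtx3l, Parp10 and Parp9 kept filled points throughout, Parp12 had 3 open points, Parp2 had 10, and the points of Parp11 straddled 0.

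Other genes of the PARP family were read from the same fit, in which 1.66% of all tested genes were lower and 1.57% higher. Of 9 further family members, 1 was lower, 0 were higher and the median log2 fold change was 0.01. The one that fell was Zc3hav1, the zinc finger antiviral protein, which is itself interferon-inducible and lacks catalytic activity. It measured 45.3, 45.8 and 47.0 FPKM with the LPS label and 33.3, 37.2 and 35.8 FPKM with the other, without overlap (log2 fold change −0.38 ± 0.05, limma adjusted p = 0.00730), and passed under all 16 alternatives. Tiparp, a target of the aryl hydrocarbon receptor, stood at 87.7% of its LPS mean with no overlap but did not pass (adjusted p = 0.0743). The tankyrases Tnks and Tnks2, which lengthen ADP-ribose chains at telomeres, had log2 fold changes of −0.05 and 0.01. Parp6 was at the upper end of the list with 0.14 (adjusted p = 0.443). Counting the 7 PARP genes among the 8 with these 9, 6 of 16 were lower and 0 higher. That count includes the members already described as lower, among them Parp2 at the edge of the threshold.

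**Figure D4:**
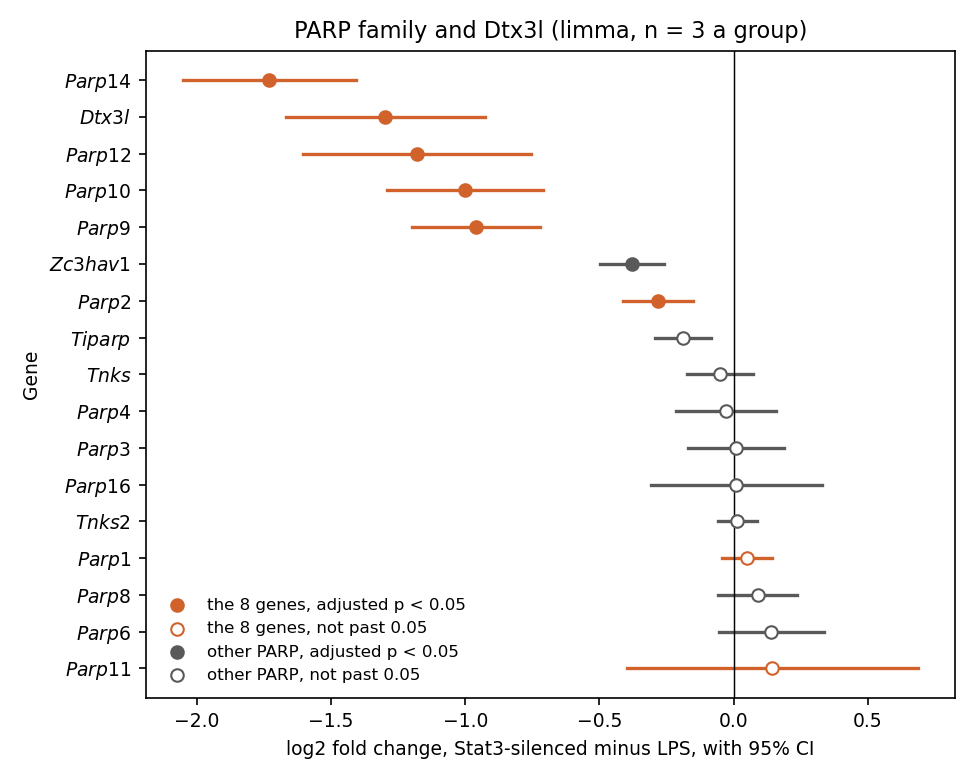
Log2 fold change with 95% CI (horizontal; libraries labelled Stat3-silenced minus LPS, n = 3 a group) of the 8 genes in orange and of 9 other PARP genes in grey, filled where the adjusted p was under 0.05. The 5 lowest are Parp14, Dtx3l, Parp12, Parp10 and Parp9, from −1.73 to −0.96, followed by Zc3hav1 at −0.38 and Parp2 at −0.28, and the remaining 10 lie between −0.19 and 0.14.

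Genes that act with these enzymes were measured by lists, to be read beside the 1.66% of all tested genes that were lower and the 1.57% that were higher. Of 7 genes that remove or bind ADP-ribose, 6 were tested and 0 passed (median log2 fold change 0.08). Macrod1, which takes single ADP-ribose units off proteins, had the largest value at 0.51 (5.67, 5.30 and 5.91 against 10.4, 6.93 and 7.30 FPKM), yet did not pass (adjusted p = 0.134). Its groups did not overlap, but 1 library, Stat3-silenced replicate 1, stood well above the others. Macrod2 was at the lower end with −0.05. Of the 4 other Deltex ligases, 3 were tested and 0 passed, and the log2 fold changes were 0.06 for Dtx2 and Dtx3 and 0.17 for Dtx4 (adjusted p = 0.200). Dtx3l was the only Deltex gene past the threshold. With so few genes passing over the whole table, 0 of 3 says little, and the difference between Dtx3l and the other 3 was not tested.

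NAD+, from which all these enzymes draw, is made by enzymes of which 7 of 8 were tested and 0 passed (median −0.06). Nampt, the rate-limiting enzyme of NAD+ salvage, was at 86.0 ± 5.86 and 81.9 ± 2.89 FPKM (SD, n = 3 each). The ends of this list were Naprt at −0.31 and Nmrk1 at 0.37, both low and variable genes. Among 8 single-strand break repair partners of Parp1 and Parp2, 0 passed and the median was −0.01, from −0.16 for Chd1l, a remodeller that ADP-ribose activates, to 0.12 for Xrcc1, the scaffold of the repair complex. Hpf1, the cofactor that directs Parp1 and Parp2 to serine residues, had a value of 0.02.

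Transcription factors of the interferon response were measured beside these genes, and Irf9 and Stat2 were lower. Irf9 measured 21.6, 21.1 and 20.8 FPKM with the LPS label and 4.59, 6.36 and 5.49 FPKM with the Stat3-silenced label (log2 fold change −1.94 ± 0.11, limma adjusted p = 6.51e-05). Its log2 fold change lay beyond that of Parp14. Stat2 fell less, to 69.3% (−0.52 ± 0.08, adjusted p = 0.0131), and its call was lost without LPS replicate 3 (0.0680), Stat3-silenced replicate 1 (0.0604) or Stat3-silenced replicate 2 (0.0557). Irf1 had a log2 fold change of −0.19 ± 0.10 (adjusted p = 0.353). Fold changes of factor and target are given side by side as measured, and no link between them was tested.

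For each inducible gene the 3 tested genes with the most similar course over the 6 libraries were found, as the smallest root-mean-square difference between log2(FPKM + 0.1) values centred on each gene's mean. For Parp14 they included Ddx58, the RNA sensor also called RIG-I (difference 0.05 on the log2 scale), and Irf9 (0.13). For Dtx3l they were Bst2, the virus tether tetherin (0.04), Ifih1, the RNA sensor MDA5 (0.08), and Parp12 (0.10), so that Parp12 came before Parp9, which was 15th at 0.20. For Parp12 they were Ifi203 (0.07), Bst2 (0.09) and Helz2 (0.10). Parp9 and Parp10 both had Ifi202b among their 3 (0.09 each). Parp9 was further joined by Slfn2 (0.08) and Hmga2 (0.10), and Parp10 by Parp9 (0.10) and Lgals9 (0.10). Ifi203 and Ifi202b belong to a family of near-identical copies, so their counts are uncertain. For Parp11 the 3 were Tmem71 (0.10), Polr2i (0.11) and Foxq1 (0.11), none of which passed the test, with log2 fold changes of 0.05, −0.05 and 0.14. The likeness is a description over 6 libraries in 2 groups, so that the size of the group difference sets most of it.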

How the data were processed

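The authors deposited FPKM values, 1 per gene and library, without pooled replicates. The submitters' processing notes name HISAT2 2.0, StringTie 1.3.0 and Bowtie 0.12.2 and the builds mm8 and GRCh38.p13, without a role for any. Coordinates here are those of GENCODE M21 on GRCm38. Of 22442 identifiers, 22399 matched a symbol. Multiplied by a library total and by the length of the merged coding sequence (with an allowance of 10 bases), whole fragment numbers (within 0.001) resulted for 97.7% of 16837 genes with any signal, against 8.20% when totals were raised by 0.1%.

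Genes with a mean of at least 0.5 FPKM (11723) were tested as log2(FPKM + 0.1) with limma 3.58.1 in R 4.3.3 (eBayes with trend, 3 against 3 libraries, no covariates), with Benjamini-Hochberg adjustment and a threshold of 0.05. The fit was checked on simulated data with the same spread for every gene and only large fold changes. That check does not cover the greater spread of low genes or small changes. Permutation tests were exact and two-sided. Other values came from Python with scipy and pandas. The members and lists were chosen with earlier results of these data known. Genes named were the 8 members, Stat3, list genes past the threshold or at the ends of a list, and the 3 most alike genes of each inducible member. The other family, enzyme and marker genes, and the neighbours on chromosome 16, were added to these after their values were seen. Alternatives were other pseudocounts, filters, scalings and variance models, a replicate block, voom on fragments, and each library left out. The ChIP-seq and other assays were not used here. Some genes covered by these rules and lists are not reported by name.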

Additional observations from a re-analysis of the deposited data

How the results depend on the processing

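Over 16 alternatives, Parp14, Dtx3l, Parp10 and Parp9 stayed lower and past the threshold. Over the 6 fits with 1 library left out, their log2 fold changes ranged from −1.83 to −1.68, −1.33 to −1.25, −1.10 to −0.955 and −0.997 to −0.910. Parp1 stayed short of the threshold (0.0386 to 0.0625), and Parp11 did too, ranging from −0.0036 (−0.003617 without Stat3-silenced replicate 2, the 1 reversal) to 0.392. Parp12 ranged from −1.24 to −1.12 and Parp2 from −0.303 to −0.253, each losing its call in the fits named above. Parp2 also lost it without a filter (−0.28, adjusted p = 0.0507), with quantile normalization (−0.27, 0.0515) and without a variance trend (−0.28, 0.0691). Members called ranged from 4 to 5 with 1 library left out and from 4 to 6 otherwise. The ratio of Dtx3l to Parp9 kept its direction, with a log2 difference from −0.467 to −0.292 with 1 library left out and −0.34 with 0.1 added to both levels.

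Calls over all genes, 379 (195 lower, 184 higher) as reported, were 140 (84 and 56) without a variance trend and 582 (309 and 273) with voom on fragments, which was fitted to fewer genes (11486). With 1 library left out they ranged from 158 to 357 (80 to 154 lower, 76 to 203 higher), and were lowest without LPS replicate 3. The counts were 176, 190 and 168 without Stat3-silenced replicates 1, 2 and 3. The cause of these shifts was not tested.

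Replicate numbers did not pair the libraries: deviations of same-numbered libraries correlated at −0.016, −0.0039 and −0.043, and no library correlated best with its own number. With the replicate number as a block, 213 genes passed (108 lower, 105 higher). The replicate block left Parp12 at −1.18 (adjusted p = 0.0589) and Parp2 at −0.28 (0.102), and no other member's call changed. Within replicate numbers, the log2 ratio of Dtx3l to Parp9 differed by −0.38. The low fragment numbers of Parp11 and Parp12 limit their precision.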
